A study of Caenorhabditis elegans with 26 samples.

Results

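The cuticle of Caenorhabditis elegans is a collagen exoskeleton that the epidermis lays down in the embryo and again at each moult. Its collagens are made as procollagens, hydroxylated and folded in the endoplasmic reticulum, cut outside the helical part and cross-linked in the extracellular matrix. Mutants in single collagen genes have visible body shapes, which named the genes: bli (blistered, from loss of the struts that join the layers of the adult cuticle), dpy (dumpy, short and fat), rol (rolling on the long axis) and sqt (squat). The 10 genes described here are bli-1, bli-2, bli-6, dpy-4, dpy-5, dpy-13, dpy-17, rol-6, sqt-1 and sqt-3, taken by symbol as body shape and blister collagens outside the furrow group. They are 10 of the 42533 symbols in the count table, and all 10 were among the 13315 genes that passed the filter on low counts.

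Poly(A) RNA of whole day 1 adults was sequenced from 5 strains with different levels of the neuropeptide gene flp-17, in 26 libraries of 200 to 500 animals each. All strains carry zcls4[hsp-4p::GFP]V, a GFP reporter of stress in the endoplasmic reticulum. AEF231 carries the reporter alone, crossed 6 times from SJ4005 into N2, and was the control (n = 6). AEF276, AEF378 and AEF373 share its background. AEF276 adds flp-17(n4894) (n = 5). AEF378 adds the extrachromosomal array ashEx67 with gcy-31p::flp-17::GFP and the marker coel::RFP (n = 5). AEF373 adds an array with FLP-17 under the flp-17 promoter and unc-122p::mCherry, and was crossed out of a flp-17 null background (n = 5). AEF149 carries the array ssrEx1193 (flp-17p::flp-17::GFP, marked with myo-3p:mCherry) in the SJ4005 background (n = 5). Arrays are not in every animal. Worms with the fluorescent marker were therefore picked out of the 3 array strains 24 h ahead of harvest, and worms of AEF231 and AEF276 only washed and replated, so array, marker and sorting cannot be told apart. In AEF149, which is in the SJ4005 background from before that outcross, strain background cannot be told apart from these either, in any comparison.

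Libraries held 9659877 to 15528669 counts, 20 of them in batch 1 and 6 in batch 2, the latter 2 each of AEF231, AEF378 and AEF373. Levels are given as CPM, counts scaled to library size. Changes are log2 fold changes ± SE from edgeR's quasi-likelihood test with terms for strain and batch, and a gene is said to rise or fall where the p adjusted over all 13315 genes was below 0.05. Whether replicates are separate cultures is not in the labels, and the p-values therefore rest on a spread between libraries that may be technical. flp-17 had a mean of 3.80 CPM in AEF231, 0.310 in AEF276 and 7.59 in AEF378, against 301 in AEF373 and 388 in AEF149. Of 9 markers of adult tissues, 8 had reads in all 26 libraries and the sperm gene gsp-3 in 25. Its mean was 4.18 CPM in AEF231, 5.13 in AEF378 and 3.23 in AEF373, but 0.355 in AEF276 and 0.687 in AEF149. The adult epidermal collagen col-19 was read at 687 CPM or more in every library.

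Most of these collagens were read at low levels in adults. Per kilobase of merged exon (RPKM), AEF231 had 7.10 ± 3.26 of dpy-17, 6.96 ± 2.07 of bli-6 and 6.34 ± 3.18 of sqt-3 (SD, n = 6). Next came dpy-5 at 3.70 ± 2.34, dpy-13 at 3.29 ± 1.78, dpy-4 at 3.17 ± 1.76 and bli-1 at 3.10 ± 1.05. The lowest were bli-2 at 1.29 ± 1.23, sqt-1 at 0.804 ± 1.03 and rol-6 at 0.553 ± 0.674. Each gene differed from its neighbour in this order by less than the larger SD of the pair, except bli-1 from bli-2. With coding length in place of exon length sqt-3 stood at 9.98 RPKM, since its annotated exons span 1422 bases and its coding part 903. In AEF373 the order had a wide gap, with dpy-17 at 106 ± 40.8 RPKM, sqt-3 at 84.7 ± 35.3 and bli-6 next at 3.79 ± 1.30 (SD, n = 5).

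**Figure D1:**
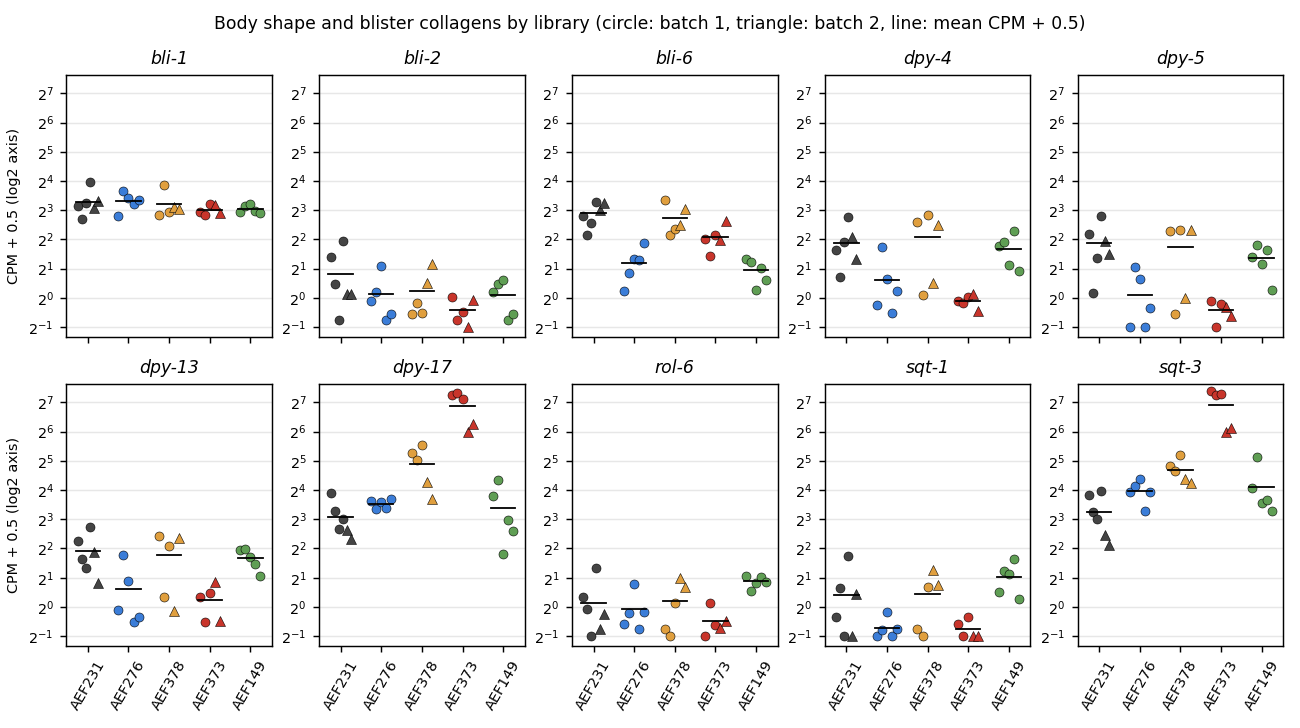
Each panel plots 1 collagen as CPM + 0.5 on a log2 axis for the 26 libraries by strain; circles are batch 1, triangles batch 2 and lines the strain mean. dpy-17 and sqt-3 stand highest in AEF373, where dpy-4 and dpy-5 are below every AEF231 library, and bli-6 is low in AEF276 and AEF149.

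The strains differed in which of the 10 collagens moved. Against AEF231, 2 rose and 5 fell in AEF373, where 34.8% of all genes tested passed, 17.9% higher and 16.9% lower. In 4 of them, dpy-4, dpy-5, dpy-17 and sqt-3, the libraries of the 2 strains did not overlap, as in 14.6% of all genes. In AEF378, 2 rose, dpy-17 and sqt-3, where 13.6% of all genes passed, 7.68% higher and 5.92% lower, and 1 did not overlap (6.23% of all genes). In AEF276, 2 fell, bli-6 and dpy-5, where 20.3% passed, 11.2% higher and 9.08% lower, and 1 did not overlap (10%). In AEF149, 1 fell, bli-6, where 17.5% passed, 6.51% higher and 11% lower, and 1 did not overlap (12.7%). The median change of the 10 was -1.86 in AEF373, -1.35 in AEF276, -0.32 in AEF149 and -0.02 in AEF378, while the median of all genes lay within 0.014 of 0 in each. Between array strains, 2 were higher and 2 lower in AEF378 than in AEF373, where 9.60% of all genes passed, 3.68% higher and 5.92% lower, and 2 did not overlap (5.96%). In AEF149 against AEF373, 4 were higher and 3 lower, where 32.3% passed, 13.2% higher and 19% lower, and 8 did not overlap (18.7%). The 4 and the 8 include rol-6, which passed the filter on low counts only because of its AEF149 libraries. Its part in these counts is not independent of that filter. Shares near those of all genes are no result about the collagens, and the comparisons share control libraries.

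The largest changes were rises of dpy-17 and sqt-3, in AEF373 and to a smaller size in AEF378. Both encode collagens needed for body shape from the embryo on, and the genetics of the 2 genes are linked. SQT-3 is a procollagen whose C-terminal part is cut by the protease DPY-31. dpy-17 (WBGene00001076) lies on chromosome III, 5107330 to 5108492, plus strand, and sqt-3 (WBGene00005018) on chromosome V, 12352745 to 12354320, plus strand (WBcel235). In bulk RNA, more cells or animals that express a gene cannot be told apart from more RNA per cell.

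In AEF231, dpy-17 ranged from 4.55 to 14.5 CPM with a median of 6.66. In AEF373 the 5 libraries read 153, 160, 138, 62.4 and 75.5 CPM, all above every AEF231 library. In AEF378 they read 38.01, 31.9, 45.9, 18.9 and 12.4 CPM, of which the last lay within the AEF231 range. In AEF276 they read 11.7, 9.77, 11.6, 9.86 and 12.3 CPM, inside the AEF231 range. In AEF149 they read 13.2, 20.0, 3.01, 7.44 and 5.50 CPM, a wider spread than in AEF276 and on both sides of the AEF231 median. Against AEF231, dpy-17 rose by 3.95 ± 0.28 in AEF373 and by 1.93 ± 0.30 in AEF378 (edgeR adjusted p = 6.92e-10 and 0.000171). The change was 0.18 ± 0.34 in AEF276 and 0.05 ± 0.34 in AEF149 (edgeR adjusted p = 0.752 and 0.953).

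sqt-3 had the same order of strains at the top. In AEF231 it ranged from 3.88 to 15.02 CPM with a median of 8.24. The AEF373 libraries read 166, 151, 154, 62.2 and 69.7 CPM, and the AEF378 libraries 27.5, 24.7, 36.7, 20.4 and 18.2 CPM. Both strains lay wholly above AEF231, and AEF373 wholly above AEF378. The AEF276 libraries read 14.9, 17.1, 20.0, 9.27 and 14.95 CPM and the AEF149 libraries 16.2, 34.7, 11.3, 12.1 and 9.16 CPM, and both overlapped AEF231. sqt-3 rose by 3.79 ± 0.27 in AEF373 and by 1.62 ± 0.30 in AEF378 (edgeR adjusted p = 8.71e-10 and 0.000862). In AEF276 the change was 0.51 ± 0.32 and in AEF149 0.65 ± 0.31 (edgeR adjusted p = 0.281 and 0.170).

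The difference between array strains was tested directly. Against AEF373, dpy-17 was lower by 2.02 ± 0.26 on the log2 scale in AEF378 and by 3.90 ± 0.29 in AEF149 (edgeR adjusted p = 1.28e-05 and 1.71e-09). sqt-3 was lower by 2.17 ± 0.26 and 3.14 ± 0.27 (edgeR adjusted p = 5.56e-06 and 1.63e-08). In all 4 of these contrasts the libraries did not overlap. flp-17 itself was 0.37 ± 0.11 higher in AEF149 than in AEF373. These 2 strains also differ in background, GFP tag, array and marker, and the part of the flp-17 level was not tested. The contrasts with AEF373 share its libraries with one another.

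Levels of both genes were lower in batch 2 in all 3 strains that have libraries there, while the changes stood within each batch. dpy-17 averaged 9.25 CPM in batch 1 and 5.14 in batch 2 in AEF231, and 150 and 69.0 in AEF373. Its change in AEF373 was 4.02 ± 0.37 within batch 1 and 3.76 ± 0.18 within batch 2, and that of sqt-3 was 3.81 ± 0.35 and 3.90 ± 0.15. In AEF378 dpy-17 changed by 2.06 ± 0.39 and 1.62 ± 0.20, and sqt-3 by 1.39 ± 0.39 and 2.13 ± 0.17. All 8 within-batch changes passed (edgeR adjusted p between 3.00e-19 and 0.0395). edgeR's test of a difference between batches called 0 of the 10 collagens in either strain. At an unadjusted p below 0.05 there were 2 in AEF378 (bli-2 and rol-6) and 0 in AEF373, where 5.07% and 9.64% of all genes were below it.

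The ratio of the pair was compared within each library. Per length, dpy-17 stood at 1.15 to 1.39 times sqt-3 in the AEF373 libraries and at 0.870 to 1.77 times in AEF378. In AEF231 the ratio was 0.640 to 1.50, in AEF276 0.731 to 1.36 and in AEF149 0.340 to 1.04. The lowest value was that of AEF149 replicate 3, with 38 counts of dpy-17 and 143 of sqt-3. An annotated noncoding RNA, F23H12.13, shares 144 exon bases with sqt-3 on the other strand, and had at most 7 counts in a library. The strand setting of the counting is not given in the sources used here.

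Markers of moulting and of the larval cuticle moved with dpy-17 and sqt-3. In AEF373, 7 of 8 rose, where 17.9% of all genes tested rose. They included ptr-4, a patched-related gene, at 3.79 ± 0.44 and the protease inhibitor gene mlt-11 at 3.64 ± 0.23. In AEF378, 6 of 8 rose (7.68% of all genes), with mlt-11 at 2.17 ± 0.24 and ptr-4 at 1.70 ± 0.51. In AEF276 and AEF149 1 each fell (noah-1 by 0.61 ± 0.15 and nas-37 by 0.32 ± 0.09, edgeR adjusted p = 0.00332 and 0.0126). Of all genes 9.08% and 11% fell there, so 1 of 8 is no result about the markers. Their summed level was 48.4 to 74.5 CPM in AEF231 and 55.8 to 67.1 in AEF276, and in the array strains 88.5 to 156 (AEF378), 176 to 319 (AEF373) and 55.8 to 85.3 (AEF149). All 8 had reads in all 26 libraries, so none was at 0. Their part in the change of the collagens was not tested.

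**Figure D2:**
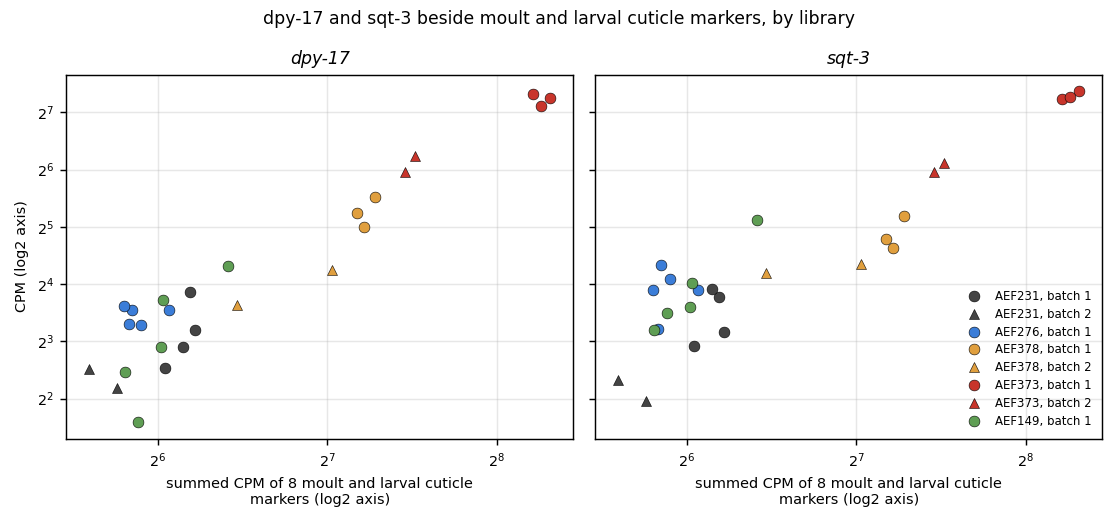
The level of dpy-17 (left) and sqt-3 (right) in each library, in CPM, is plotted against the summed CPM of 8 moult and larval cuticle markers, both on log2 axes; colours are strains, circles batch 1 and triangles batch 2. AEF373 lies at the upper right, its batch 2 libraries between its batch 1 libraries and AEF378, while AEF231, AEF276 and AEF149 share the lower left.

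Markers of embryos gave a mixed picture. Of 9 zygotic genes, only hch-1, a protease gene needed for hatching, and pes-10 passed the filter on low counts. hch-1 rose by 3.45 ± 0.31 in AEF373 and by 2.12 ± 0.33 in AEF378 and fell by 1.56 ± 0.47 in AEF149 (edgeR adjusted p = 6.23e-09, 0.000100 and 0.0219), while pes-10 fell by 0.96 ± 0.28 in AEF373 (edgeR adjusted p = 0.00577). The summed level of the 9 was 5.40 to 8.99 CPM in AEF231 and 3.71 to 6.15 in AEF276, and in the array strains 6.28 to 14.3 (AEF378), 13.8 to 26.7 (AEF373) and 1.92 to 5.22 (AEF149). The high sums of AEF373 and AEF378 were those of hch-1. Without it, the other 8 summed to 4.95 to 7.54 CPM in AEF231. They summed to 2.39 to 4.21 in AEF373 and to 1.74 to 4.22 in AEF149, with every library of both strains below every AEF231 library. In AEF378, at 2.07 to 5.79, and in AEF276, at 2.57 to 5.76, they overlapped AEF231. The 7 below the filter reached at most 15 counts in a library, and med-2 had reads in 8 of 26. Whether embryos contribute to the dpy-17 and sqt-3 reads was not tested. Of 6 furrow collagens, which shape the annuli of the cuticle, 4 also rose in AEF373, 4 in AEF378 and 1 in AEF149. Of all genes tested, 17.9%, 7.68% and 6.51% rose there. dpy-7 was at 4.02 ± 0.32, 2.12 ± 0.36 and 1.06 in these strains in turn, the last not passing the test, and dpy-3 rose in all 3, by 4.39 ± 0.42, 2.74 ± 0.47 and 1.48 ± 0.50.

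**Figure D3:**
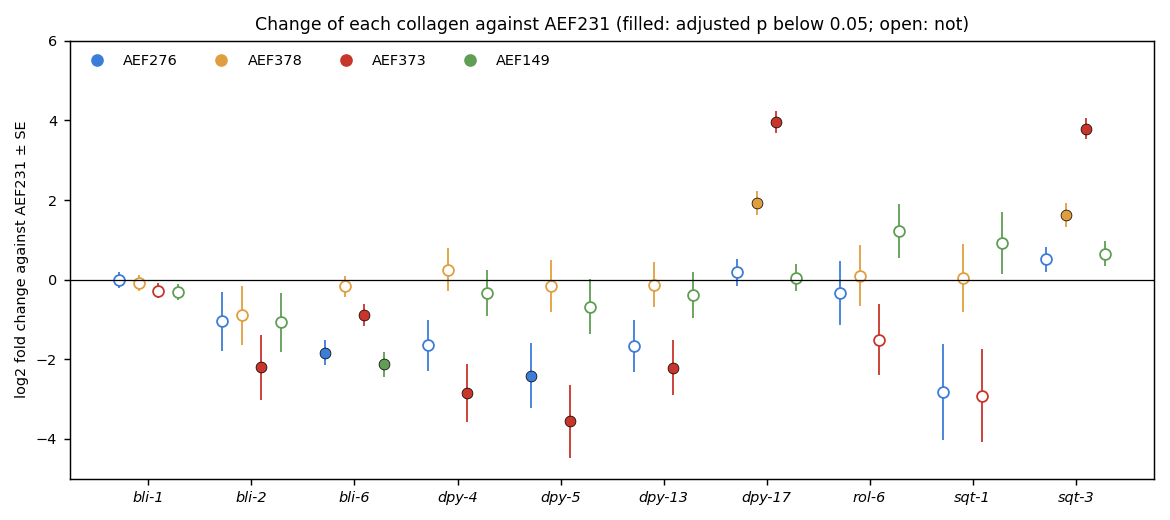
Points are log2 fold changes of each collagen against AEF231 with SE bars, by strain; filled points have an adjusted p below 0.05 in edgeR's test. In AEF373 dpy-17 and sqt-3 lie near 4 while the called changes of dpy-4, dpy-5, dpy-13, bli-2 and bli-6 lie below 0.

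The other dumpy collagens went the opposite way. dpy-5 (WBGene00001067, chromosome I, 5432197 to 5433051), dpy-13 (WBGene00001074, chromosome IV, 4235614 to 4236710) and dpy-4 (WBGene00001066, chromosome IV, 14985543 to 14986784) each encode a cuticle collagen whose loss shortens the body. All 3 fell in AEF373.

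dpy-4 ranged from 1.15 to 6.27 CPM in AEF231 with a median of 2.95. In AEF373 the libraries read 0.430, 0.395, 0.518, 0.599 and 0.224 CPM, from 3 to 7 counts each, below every AEF231 library. dpy-5 ranged from 0.619 to 6.46 CPM in AEF231 with a median of 2.87. In AEF373 it was read at 0.430, 0, 0.370, 0.299 and 0.150 CPM, again with no overlap. dpy-13 ranged from 1.26 to 6.18 CPM in AEF231 with a median of 2.93, and read 0.774, 0.197, 0.887, 1.30 and 0.224 CPM in AEF373, where the library at 1.30 overlapped. The changes were -2.84 ± 0.73 for dpy-4, -3.56 ± 0.92 for dpy-5 and -2.21 ± 0.69 for dpy-13 (edgeR adjusted p = 0.00457, 0.00461 and 0.0160). Within batch 1 they were -2.84 ± 0.95, -3.49 ± 1.20 and -2.52 ± 0.79, all past the threshold. Within batch 2, with 2 libraries a strain, they were -2.84 ± 0.82, -3.67 ± 0.99 and -1.64 ± 1.43, none past it (edgeR adjusted p = 0.0598, 0.0528 and 0.632).

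In AEF276 the trio was low in most libraries. dpy-4 read 0.338, 2.87, 1.05, 0.195 and 0.667 CPM, dpy-5 0, 1.58, 1.05, 0 and 0.286 CPM, and dpy-13 0.422, 2.95, 1.34, 0.195 and 0.286 CPM. Replicate 2 was the highest in all 3 genes and lay within the AEF231 range in each. dpy-5 fell by 2.41 ± 0.81 (edgeR adjusted p = 0.0410), while dpy-4 at -1.65 ± 0.65 and dpy-13 at -1.67 ± 0.65 did not pass (edgeR adjusted p = 0.0772 and 0.0731). Both passed without robust weights (edgeR adjusted p = 0.0261 and 0.0244), and dpy-4 also with DESeq2 (adjusted p = 0.0435). Both passed with no filter too, where dpy-4 had nearly the same change (-1.67) at a far smaller edgeR adjusted p of 8.31e-07. The cause was not looked into, so calls gained with no filter are given no weight here. Leaving out replicate 1, 4, 5 or 6 of AEF231, or 1, 3, 4 or 5 of AEF276, ended the dpy-5 call, at adjusted p between 0.0532 and 0.109, with batch 1 alone (0.0896) and with only the 2 strains compared (0.118). Without AEF276 replicate 2 all 3 passed, dpy-4 at -2.61 and dpy-13 at -2.65 (edgeR adjusted p = 0.0176 and 0.0159).

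In AEF378 the trio split the libraries of the strain. dpy-4 read 5.58, 0.569, 6.70, 0.910 and 5.10 CPM, dpy-5 4.35, 0.190, 4.47, 0.496 and 4.55 CPM, and dpy-13 4.92, 0.759, 3.76, 0.414 and 4.64 CPM. Replicates 2 and 4 were low and replicates 1, 3 and 5 high in each gene, with 1 low library in each batch. None of the 3 changed against AEF231 by the test (0.25 ± 0.54, -0.16 ± 0.65 and -0.13 ± 0.57; edgeR adjusted p = 0.817, 0.911 and 0.918), and the sign of each turned when single libraries were left out. In AEF149 dpy-4 read 1.40 to 4.35 CPM, dpy-5 0.698 to 3.05 and dpy-13 1.57 to 3.42, and the changes of -0.33 ± 0.58, -0.68 ± 0.69 and -0.38 ± 0.58 did not pass (edgeR adjusted p = 0.775, 0.576 and 0.732).

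**Figure D4:**
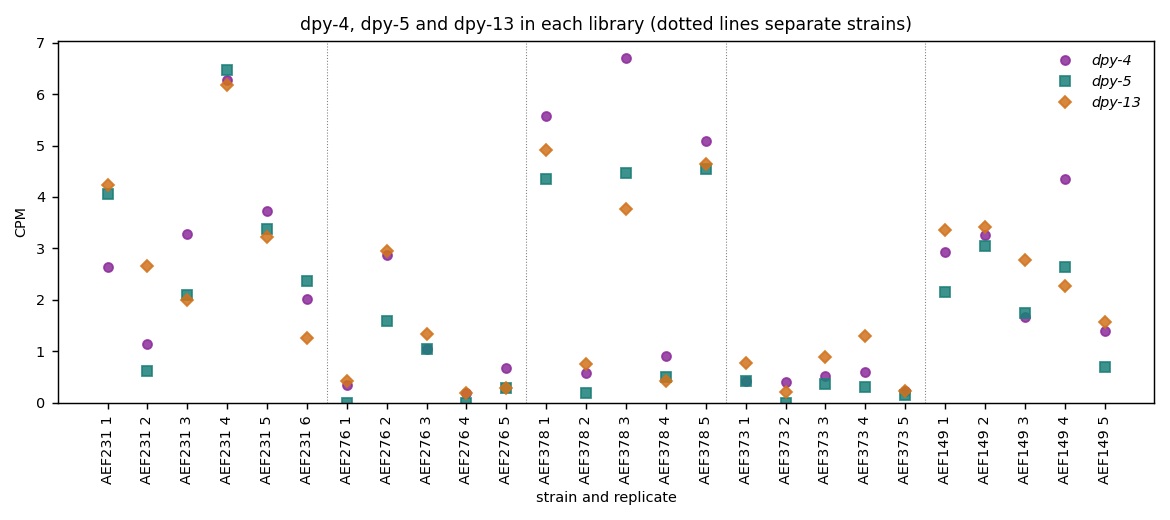
CPM of dpy-4 (circles), dpy-5 (squares) and dpy-13 (diamonds) is plotted for each of the 26 libraries, with dotted lines between strains. The 3 genes are mostly high and low in the same libraries, as in AEF378, where replicates 2 and 4 are below 1 CPM and the others at 3.76 or more in all 3 genes.

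Set against AEF373, dpy-4 and dpy-5 were higher in both other array strains. dpy-4 was higher by 3.09 ± 0.74 in AEF378 and 2.51 ± 0.78 in AEF149 (edgeR adjusted p = 0.00882 and 0.0176), and dpy-5 by 3.40 ± 0.95 and 2.87 ± 1.00 (edgeR adjusted p = 0.0244 and 0.0321). dpy-13 was at 2.09 ± 0.71 and 1.83 ± 0.74 and did not pass (edgeR adjusted p = 0.0721 and 0.0623). It passed in both with DESeq2 (adjusted p = 0.0339 and 0.0356) and without robust weights (edgeR adjusted p = 0.0173 and 0.0193). It also passed in both with no filter, under the limit given above. In AEF149 it also passed with no batch term (0.0318), batch 1 alone (0.0486) and only the 2 strains compared (edgeR adjusted p = 0.000583). Without AEF373 replicate 4 it passed in both, and without AEF378 replicate 2 or 4 in AEF378 (edgeR adjusted p between 0.0292 and 0.0488). The dpy-5 call in AEF378 ended without any 1 of AEF378 replicates 1, 3 and 5 or AEF373 replicates 2, 3 and 5 (edgeR adjusted p between 0.0526 and 0.0719). Its call in AEF149 ended without AEF373 replicates 1, 2, 3 or 5 or AEF149 replicates 2 or 4 (edgeR adjusted p between 0.0521 and 0.0757). With batch 1 alone the dpy-4 and dpy-5 values in AEF378 were 3.19 and 3.35 and did not pass (edgeR adjusted p = 0.0525 and 0.126), nor did they with batch 2 alone (0.126 and 0.147). Batch 1 alone also ended the dpy-5 call in AEF149 (2.86, edgeR adjusted p = 0.0805). With only AEF378 and AEF373 in the fit, neither dpy-4 nor dpy-5 passed the filter on low counts, so neither was tested.

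**Figure D5:**
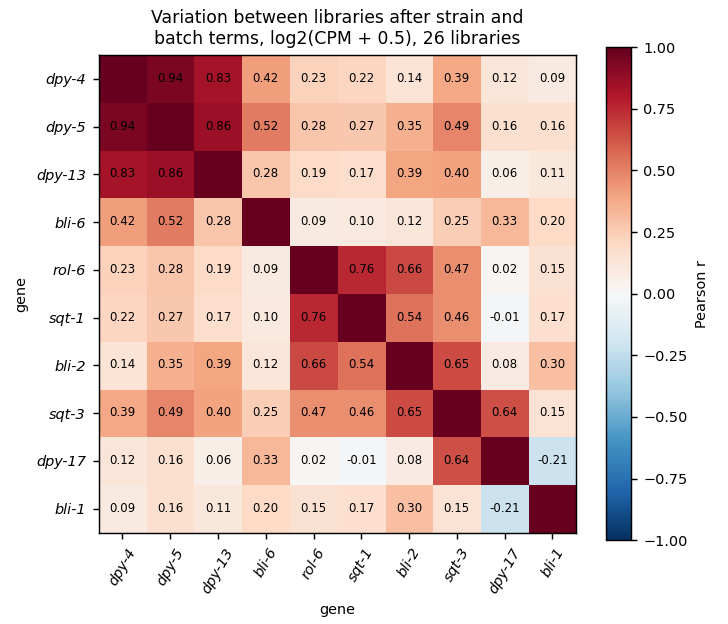
Each cell is Pearson's r between 2 collagens over 26 libraries, for log2(CPM + 0.5) after terms for strain and batch; red is positive and blue negative. dpy-4, dpy-5 and dpy-13 form the block of highest values, from 0.83 to 0.94, followed by rol-6 with sqt-1 at 0.76.

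The 3 genes also varied together within strains. After strain and batch were taken out of log2(CPM + 0.5), r over the 26 libraries was 0.94 between dpy-4 and dpy-5, 0.86 between dpy-5 and dpy-13 and 0.83 between dpy-4 and dpy-13, as a description. The median over all 45 pairs of the 10 genes was 0.25. rol-6 and sqt-1, whose products are known to interact genetically, stood at 0.76. Next came bli-2 with rol-6 at 0.66, bli-2 with sqt-3 at 0.65 and dpy-17 with sqt-3 at 0.64. By rank (Spearman's rho) these pairs were at 0.48, 0.74 and 0.48 in turn, and dpy-5 with sqt-3 at 0.61. dpy-17 was near 0 with dpy-4, dpy-5 and dpy-13 (0.12, 0.16 and 0.06), and 9 of the 45 pairs were above 0.5. The points share library depth, and several of these genes had fewer than 10 counts in some libraries.

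The strut collagens gave 3 different patterns. bli-6 (WBGene00000256, chromosome IV, 6377065 to 6378168, plus strand) ranged from 3.98 to 9.13 CPM in AEF231 with a median of 7.02. It read 0.675, 1.29, 2.00, 1.95 and 3.14 CPM in AEF276 and 2.00, 1.86, 0.714, 1.54 and 1.05 CPM in AEF149, with every library of both strains below every AEF231 library. It fell by 1.83 ± 0.32 in AEF276 and by 2.13 ± 0.32 in AEF149 (edgeR adjusted p = 0.000180 and 1.52e-05). In AEF373 it read 3.53, 2.17, 3.92, 3.49 and 5.76 CPM, overlapping AEF231, and fell by 0.88 ± 0.28 (edgeR adjusted p = 0.0134), a call lost within either batch (-0.93 ± 0.37 and -0.82 ± 0.26, edgeR adjusted p = 0.0589 and 0.0557). In AEF378 it read 9.74, 3.98, 4.57, 5.13 and 7.73 CPM and changed by -0.16 ± 0.26 (edgeR adjusted p = 0.741). bli-6 was also lower in AEF149 than in AEF373, by 1.24 ± 0.35 with no overlap (edgeR adjusted p = 0.00728).

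The 2 strains lowest in bli-6 were also low in the sperm gene gsp-3. It changed by -3.23 ± 0.36 in AEF276 and -2.31 ± 0.31 in AEF149 (edgeR adjusted p = 1.05e-08 and 3.11e-07). In AEF373, where bli-6 fell by 0.88 ± 0.28, gsp-3 did not pass (-0.46 ± 0.24, edgeR adjusted p = 0.145). Nor did it pass in AEF378 (0.27 ± 0.23, edgeR adjusted p = 0.505). Over the 26 libraries the genes most like bli-6 were smz-1, R09H10.5 and msp-142, at r of 0.89, 0.88 and 0.88. smz-1 and msp-142 encode sperm proteins. After strain and batch terms r was 0.52, 0.51 and 0.45. The part of sperm RNA in the bli-6 values was not tested.

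bli-1 (WBGene00000251, chromosome II, 10708960 to 10712156, plus strand) was the steadiest of the 10 between strains. AEF231 had a mean of 9.32 ± 3.15 CPM (SD, n = 6) and AEF276 of 9.47 ± 2.12 (SD, n = 5). AEF378 had 8.72 ± 3.02, AEF373 7.60 ± 0.945 and AEF149 7.74 ± 0.713, also with n = 5. Changes lay between -0.30 ± 0.20 and -0.01 ± 0.20 and none passed (edgeR adjusted p between 0.271 and 0.978). The gene lies inside dph-2, which is on the minus strand and was read at 32.5 to 38.1 CPM in strain means. The exons of the 2 genes share 7 bases, and reads of one in the introns of the other cannot be told apart without the strand setting.

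bli-2 (WBGene00000252, chromosome II, 5651394 to 5652434, minus strand) was scarce, with 0 to 35 counts per library. It ranged from 0.0908 to 3.33 CPM in AEF231 with a median of 0.746, and read 0.516, 0.0987, 0.222, 0 and 0.449 CPM in AEF373. It fell by 2.20 ± 0.82 in AEF373 (edgeR adjusted p = 0.0399), although the libraries overlapped. Leaving out replicate 1 or 4 of AEF231, or replicate 2, 3 or 4 of AEF373, ended the call (adjusted p between 0.0769 and 0.115), and it was lost within batch 2 (-1.22 ± 0.88, adjusted p = 0.490). In the other strains the changes were -1.04 ± 0.74, -0.89 ± 0.74 and -1.08 ± 0.73 and did not pass (edgeR adjusted p between 0.347 and 0.483). bli-2 lies in zyg-1 and dpy-4 in atln-2, both on the other strand and with no shared exon bases. zyg-1 was read at 87.5 to 105 CPM in strain means and atln-2 at 1.72 to 2.87, and neither passed the test in any comparison.

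The roller and squat genes rol-6 (WBGene00004397, chromosome II, 8733050 to 8734239) and sqt-1 (WBGene00005016, chromosome II, 11336693 to 11337837), alleles of which twist the body, were at the edge of detection. rol-6 had 0 to 22 counts per library and sqt-1 0 to 30. In AEF231 rol-6 ranged from 0 to 2.00 CPM with a median of 0.390, and sqt-1 from 0 to 2.85 CPM with a median of 0.563. In AEF149 both were read in every library, rol-6 at 1.57, 0.966, 1.27, 1.54 and 1.31 CPM and sqt-1 at 0.930, 1.86, 1.67, 2.63 and 0.698 CPM. In AEF373 rol-6 read 0, 0.592, 0.148, 0.0998 and 0.224 CPM and sqt-1 0.172, 0, 0.296, 0 and 0 CPM, all below every AEF149 library. rol-6 was higher in AEF149 than in AEF373 by 2.73 ± 0.87 and sqt-1 by 3.83 ± 1.15 (edgeR adjusted p = 0.0171 and 0.0133). The rol-6 call ended without AEF373 replicate 1 (adjusted p = 0.0517). rol-6 passed the filter on low counts only because of its AEF149 libraries. Its higher level in AEF149, in any contrast, is therefore not independent of that filter.

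Against AEF231, neither gene passed in any strain in the fit reported here. rol-6 was at -0.34 ± 0.80 in AEF276 and 0.10 ± 0.77 in AEF378, and at -1.51 ± 0.89 in AEF373 and 1.22 ± 0.69 in AEF149 (edgeR adjusted p between 0.202 and 0.952). sqt-1 was at -2.82 ± 1.20, 0.04 ± 0.85, -2.92 ± 1.17 and 0.92 ± 0.79 (edgeR adjusted p = 0.10, 0.986, 0.0578 and 0.494). sqt-1 passed in AEF373 with DESeq2 (adjusted p = 0.0471), and with no batch term, without robust weights and with no filter (edgeR adjusted p = 0.0499, 0.0211 and 3.64e-05). In AEF276 it passed without robust weights and with no filter (edgeR adjusted p = 0.0455 and 0.000200). The sqt-1 calls with no filter carry the limit given for dpy-4 in AEF276 and are given no weight. sqt-1 read 0, 0.0719, 0.382, 0 and 0.0952 CPM in AEF276. Without AEF231 replicate 4, the highest control library in both genes, rol-6 passed in AEF149 at 2.32 (adjusted p = 0.0182). Without AEF231 replicates 3 or 5, each at 0 counts of sqt-1, sqt-1 passed in AEF373 at -3.15 and -3.30 (edgeR adjusted p = 0.0325 and 0.0217).

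Among genes that mature collagen, the called changes against AEF231 were no larger than about 0.40 in size. Of all genes tested, 17.9% rose in AEF373, 7.68% in AEF378 and 11.2% in AEF276, while 9.08% fell in AEF276 and 11% in AEF149. Of 7 tested genes for folding and secretion, 2 rose in AEF373. These were dpy-18, a prolyl 4-hydroxylase subunit, at 0.40 ± 0.08 and pdi-2, the protein disulphide isomerase that partners it, at 0.39 ± 0.08 (edgeR adjusted p = 7.96e-05 and 0.000140). pdi-2 also rose in AEF378, at 0.23 ± 0.08, and phy-2, the other hydroxylase subunit, fell in AEF149 by 0.32 ± 0.09. phy-3, at low counts, had a mean of 1.62 CPM in AEF231, 0.914 in AEF276 and 0.979 in AEF149, and did not pass. In AEF276 sec-23 of secretory vesicles and tmem-131 rose by 0.21 ± 0.06 and 0.16 ± 0.06. Of 7 genes for cleavage and cross-linking, bli-3, a dual oxidase that cross-links tyrosines, rose by 0.25 ± 0.07 in AEF373 and fell by 0.40 ± 0.08 in AEF149. mlt-7, a peroxidase, and dpy-31 fell in AEF276, by 0.35 ± 0.09 and 0.31 ± 0.09. bli-4, the proprotein convertase that cuts collagens at the N-terminal side, lay between -0.10 ± 0.04 and 0.07 ± 0.04 and did not pass (edgeR adjusted p between 0.105 and 0.990).

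Among 9 epidermal transcription factors, 4 rose in AEF373 and 2 in AEF378. In AEF149 2 rose and 1 fell, and in AEF276 1 rose. Of all genes tested, 17.9% rose in AEF373, 7.68% in AEF378, 6.51% in AEF149 and 11.2% in AEF276, and 11% fell in AEF149. grh-1, a Grainyhead factor, was at 1.53 ± 0.16 in AEF373 and 0.62 ± 0.17 in AEF378. nhr-25, a nuclear receptor needed for moulting, was at 1.45 ± 0.18 and 0.84 ± 0.19. In AEF149 both genes also had every library above every AEF231 library. Their means were 6.17 CPM of grh-1 and 3.95 of nhr-25 in AEF149, against 3.80 and 2.64 in AEF231. bed-3 rose in AEF373, AEF276 and AEF149, by 1.48 ± 0.21, 0.98 ± 0.23 and 0.95 ± 0.23. The BMP-like pathway, which sets body size and acts on collagen genes, had 3 of 10 higher and 1 lower in AEF373, such as sma-4 at 0.43 ± 0.14, and 1 higher in AEF149. The share called was near that of all genes in AEF373 (34.8%) and below it in AEF149 (17.5%), so it is no result about the pathway. All 4 genes of epidermal attachment and junctions rose in AEF373, with ajm-1 at 0.65 ± 0.06, and 2 in AEF378, while 2 fell in AEF149. The adult collagen col-19 fell by 0.83 ± 0.07 in AEF149 and by 0.21 ± 0.07 in AEF276 (edgeR adjusted p = 7.19e-11 and 0.0357) and was at 0.06 ± 0.07 in AEF378 and -0.08 ± 0.07 in AEF373. col-7, another adult collagen, fell by 3.04 ± 0.74 in AEF276.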

How the data were processed

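The authors deposited raw counts, whole numbers for each gene in each library. STAR 2.7.11b and build ce11 are named in the submitters' processing notes. For the counting tool, strand setting, annotation release and filters, nothing is given in the sources used here. Positions and lengths come from the Ensembl release 115 annotation of WBcel235, the assembly of ce11. Counts were used as deposited. Genes were kept with filterByExpr by strain, scaled by TMM, and tested with edgeR 4.0.16 (R 4.3.3) quasi-likelihood fits (robust option) of strain plus batch over all 26 libraries, and Benjamini-Hochberg adjustment over 13315 genes at a threshold of 0.05. Each SE is the log2 fold change divided by the root of its F. RPKM used merged exons. The members and gene lists were chosen with earlier results of these data known. All members were named, with up to 2 called genes of each other list per comparison, dpy-31, bli-4, dpy-18, pdi-2 and col-19. The 3 genes most like each member were looked up, but only some are named, and none for bli-1, bli-2, rol-6 and sqt-1. The fit was also run on simulated counts for AEF373 against AEF231 with no batch effect, and the outcome is not given here. Changes were set only in genes above a floor on the AEF231 mean, which leaves out rol-6 and sqt-1. Replicates were no repeats of 1 library: the 55 pairs within strains had a chi-square per gene of 3.12 to 13.8, more than counting noise. Same-numbered libraries did not deviate together, so the main fit has no replicate block. Alternatives were DESeq2 1.42.0 and its size factors, stricter and no filters, single batches, a fit without batch, a replicate block, only the strains compared, no robust weights, a stricter threshold and each library left out. One symbol listed among the secretion genes, tmem-39, was not analysed here.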

Additional observations from a re-analysis of the deposited data

Results flagged for a closer look

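Of 50 groups of 1 collagen in 1 strain, 6 held a library that stood apart from the others by the gap to its nearest neighbour over the range. The cutoffs give about 1 in 20 by chance only for normally distributed values. That rate need not hold for CPM of low counts, and the groups share libraries, so 6 of 50 is not shown to be an excess. All 6 were high values. AEF231 replicate 4 was high in bli-1, at 15.3 CPM with the next library at 9.36, and in sqt-1, at 2.85 CPM with the next at 1.06. AEF378 replicate 2 was high in bli-1, at 14.0 CPM with the next at 8.11. AEF276 replicate 3 was high in rol-6, at 1.24 CPM with the next at 0.381, and in sqt-1, at 0.382 CPM with the next at 0.0952. AEF149 replicate 2 was high in sqt-3, at 34.7 CPM with the next at 16.2.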

How the results depend on the processing

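The rises of dpy-17 and sqt-3 in AEF373 and AEF378 and the falls of bli-6 in AEF276 and AEF149 kept their direction and side of the threshold in every alternative run. The counts of collagens called were less firm, and the cause was not tested. In AEF276 the count of 2 was 6 with no filter, 5 without robust weights, and 1 with batch 1 alone, with the replicate block, at an adjusted p below 0.01 and with only the 2 strains compared, and 1 to 4 with single libraries left out. In AEF149 the count of 1 was 2 with no filter and 1 to 2 with single libraries left out. In AEF373 the count of 7 was 3 with batch 2 alone and 4 at an adjusted p below 0.01. For AEF378 against AEF373 the count of 4 was 7 with no filter and 2 with batch 1 alone and with only the 2 strains compared. With only those 2 strains dpy-4 and dpy-5 did not pass the filter on low counts and were not tested. For AEF149 against AEF373 the count of 7 was 3 at an adjusted p below 0.01. The 7 include rol-6, under the filter limit given for that gene. Calls gained by dpy-4, dpy-13 and sqt-1 under other settings are given beside those genes. With no filter sqt-3 also passed in AEF276 and AEF149, and bli-6 and sqt-1 in AEF378 against AEF373. sqt-1 passed there with batch 2 alone too. For sqt-3 in AEF149 the edgeR adjusted p with no filter was 1.64e-10 at a change of 0.67. In the main fit it was 0.170 at 0.65. The cause was not looked into, so calls and counts gained with no filter are given no weight. The replicate block ended the calls of bli-2 in AEF373 and of dpy-5 in AEF276 and in both contrasts with AEF373 (adjusted p between 0.0565 and 0.101), and no other call among the 10 collagens. Same-numbered libraries had correlations of deviations between -0.25 and 0.14.

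Signs turned only for values that passed in neither setting. In AEF378, rol-6 was at -1.76 and sqt-1 at -1.40 with batch 1 alone, bli-2 at 1.12 and dpy-13 at 0.16 with batch 2 alone, and sqt-1 at -0.026 with the replicate block and -0.014 with only the 2 strains compared. bli-1 was at 0.029 with no batch term in AEF276 and at 0.026, 0.063 and 0.029 in AEF149 against AEF373 with no batch term, batch 1 alone and only the 2 strains. In AEF378 against AEF373, bli-2 was at -0.14 and rol-6 at -0.033 with batch 1 alone. With single libraries left out, values in AEF378 ranged from -0.32 to 0.10 for bli-1, -0.041 to 0.56 for dpy-4, -0.56 to 0.17 for dpy-5, -0.55 to 0.17 for dpy-13, -0.36 to 0.92 for rol-6 and -0.44 to 0.87 for sqt-1. In AEF276 they ranged from -0.17 to 0.18 for bli-1 and -1.12 to 0.72 for rol-6, and in AEF149 from -0.55 to 0.029 for dpy-4 and -0.39 to 0.28 for dpy-17. bli-1 ranged from -0.044 to 0.28 in AEF378 against AEF373 and from -0.091 to 0.035 in AEF149 against AEF373. By coding length sqt-3 moved from 6.34 to 9.98 RPKM. Depth limits bli-2, rol-6 and sqt-1 most, with 0 to 35 counts per library.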

Other observations

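The genes whose levels over the 26 libraries were most like those of the collagens differed between the collagens, as a description. For dpy-4, dpy-5 and dpy-13 the most similar gene was col-73, another collagen gene, at r of 0.94, 0.95 and 0.92, and 0.94, 0.95 and 0.90 after strain and batch terms, followed by col-71 at 0.78, 0.78 and 0.76. For dpy-17 it was dpy-14, a further dumpy gene that encodes a collagen, at 0.99, and 0.88 after those terms. dpy-14 stood at 0.95 with sqt-3 and 0.71 after those terms, behind R09E10.5 at 0.95 and 0.39. bli-1, bli-2, rol-6 and sqt-1 had no gene above 0.72, 0.65, 0.64 and 0.69. The search ran over 10668 other genes, each averaging 2 CPM or more.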
